A study of Mus musculus with 30 samples.

Results

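The 10 genes described here are genes of fat cells that were measured in the ventral prostate (VP) of mice, namely Adipoq, Cfd, Car3, Plin1, Plin4, Fabp4, Lep, Retn, Cidec and Lipe. They were chosen by symbol, from what their products do in adipocytes, out of 39179 gene identifiers in the count tables, of which 37607 could be paired with a symbol. All 10 passed the filter on low counts in every fit. RNA-seq was done on the VP of male C57BL/6 mice given isocaloric, normolipidic diets from weaning on, for 12 or 32 weeks. The fat of the LO diet was linseed oil, that of the SO diet soybean oil and that of the PF diet lard. There were 5 libraries in each of the 6 groups, 30 in all, and no group carried a transgene or a drug. The libraries are called mice and are named by the number in their labels, although no source used here states that each came from 1 animal, so that p-values measure the spread between these libraries. Time on diet and age went together, and the reported levels are CPM (counts scaled to a common library size) on library sizes scaled by trimmed means (TMM).

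Adipocytes store triglyceride in a single large droplet, coated by perilipins, and release it as fatty acids when lipases are switched on. They also send hormones and complement proteins into the blood. Around the lobes of the mouse prostate lies loose connective tissue with fat, and a dissected lobe can carry some of it along. In bulk tissue, fewer cells of a type and less RNA per cell cannot be told apart.

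The libraries held 27590631 to 41301707 counted read pairs (median 33684704), which gave the members 52 to 3202 counts in the case of Adipoq and 32 to 10549 in the case of Cfd. The tissue label was checked against markers. The 8 luminal epithelial markers, led by the secretory genes Sbp and Spink1, summed to 111773 CPM or more in every mouse, and the 6 markers of the seminal vesicle summed to at most 0.306 CPM in any mouse. The 6 markers of skeletal muscle summed to 41.5 to 561 CPM (median 79.2). Myh4 and Tnnt3 were highest in PF mouse 3, Acta1, Ckm and Mb in LO mouse 1 and Pvalb in SO mouse 4, all at 32 weeks. The part of this in the levels of the members was not tested. Pbsn, the androgen-driven secretory gene probasin, was at 123 CPM in LO mouse 2 and 346 CPM in SO mouse 5 at 12 weeks, against 1837 CPM or more in all others.

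The sequence before the start sites is shown for 3 of the members, each of which held a match to a searched motif. RefSeq promoters on GRCm38.p6 were found for 8 of the 10 members (10 start sites, none for Car3 and Fabp4), and 250 bases upstream of each were searched on both strands for TTGCNNAA, a form of the element that C/EBP factors of adipocyte differentiation are known to bind, for the CCAAT box, for TATAAA and for the nuclear receptor half-site AGGTCA. These 4 motifs do not contain one another, and a CCAAT box on the opposite strand reads ATTGG. The lines below run 5′ to 3′ on the gene's strand, with matches in capitals, for Adipoq (chr16:23146286-23146535, plus strand), Plin1 (chr7:79732777-79733026, minus strand) and Lep (chr6:29059971-29060220, plus strand).
Adipoq: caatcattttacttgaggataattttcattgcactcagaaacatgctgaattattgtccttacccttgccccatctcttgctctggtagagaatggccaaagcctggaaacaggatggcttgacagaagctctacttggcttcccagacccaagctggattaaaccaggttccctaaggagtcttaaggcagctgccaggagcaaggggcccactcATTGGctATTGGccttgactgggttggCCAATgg
Plin1: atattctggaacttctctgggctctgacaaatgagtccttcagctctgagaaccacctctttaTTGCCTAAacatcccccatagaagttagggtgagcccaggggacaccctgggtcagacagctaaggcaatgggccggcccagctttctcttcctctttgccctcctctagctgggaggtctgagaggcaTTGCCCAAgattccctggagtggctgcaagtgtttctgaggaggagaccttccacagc
Lep: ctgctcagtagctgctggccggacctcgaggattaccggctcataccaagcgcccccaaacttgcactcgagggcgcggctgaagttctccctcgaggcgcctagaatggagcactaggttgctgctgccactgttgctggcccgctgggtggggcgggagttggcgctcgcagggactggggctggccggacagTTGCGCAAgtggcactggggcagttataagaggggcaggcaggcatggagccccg

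TTGCNNAA was matched in 3 members, at bases -187 to -180 and -58 to -51 before the start of Plin1, at -55 to -48 before that of Lep and at -198 to -191 before 1 of the starts of Cidec. It was held by 3 of the 10 promoters of members, and by 9.56% of 32851 promoters of the same length. The CCAAT box was matched in Adipoq, 3 times, and in Plin4, which made 2 of the 10 promoters of members. It was present in 33.8% of all promoters. The promoters of Retn, Cfd and Lipe held no match to any of the motifs. TATAAA (12.4% of promoters) and AGGTCA (14.0%) were matched in 0 members. A match describes letters in a window and does not show that a factor binds there.

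Adipoq (ENSMUSG00000022878, chromosome 16, 23146536 to 23158028, GRCm38) encodes adiponectin, a hormone made almost only by adipocytes. At 12 weeks its levels in mice 1 to 5 were 19.5, 12.4, 56.4, 1.35 and 59.98 CPM in LO, 11.3, 6.00, 20.1, 11.6 and 70.8 CPM in SO, and 10.2, 22.6, 8.53, 34.0 and 29.5 CPM in PF. At 32 weeks they were 12.8, 5.94, 26.4, 41.4 and 8.74 CPM in LO, 5.39, 3.33, 21.9, 1.77 and 37.7 CPM in SO, and 49.0, 83.9, 3.98, 25.3 and 75.1 CPM in PF. The group means were 29.9 ± 26.6, 23.96 ± 26.7 and 20.9 ± 11.4 CPM (SD, n = 5) for LO, SO and PF at 12 weeks, and 19.1 ± 14.8, 14.0 ± 15.5 and 47.5 ± 33.4 CPM (SD, n = 5) at 32 weeks. All groups overlapped, and mice of 1 diet and age differed more than the means of the diets did. The highest mouse exceeded the lowest of its group from 3.98-fold (PF, 12 weeks) to 44.3-fold (LO, 12 weeks). The lowest and highest group mean stood 3.39-fold apart, and means of 5 mice vary less than single mice do. Over the whole series, the lowest and highest mouse stood 62.0-fold apart.

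Cfd (ENSMUSG00000061780, chromosome 10, 79890853 to 79892655) encodes adipsin, the complement factor D that adipocytes secrete. In mice 1 to 5 at 12 weeks it was at 65.1, 22.4, 115, 2.32 and 100.2 CPM in LO, 31.6, 12.3, 36.6, 30.8 and 203 CPM in SO, and 42.4, 85.1, 28.9, 57.8 and 55.3 CPM in PF. At 32 weeks it was at 80.1, 12.2, 79.9, 76.9 and 25.1 CPM in LO, 12.5, 4.52, 76.4, 0.959 and 29.0 CPM in SO, and 264, 216, 9.54, 72.2 and 189 CPM in PF. Mice 1, 2 and 5 of PF at 32 weeks lay above all SO mice of that age, while PF mouse 3 lay below 3 of the 5. The extremes of Cfd over the 30 mice were 275-fold apart.

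Fabp4 (ENSMUSG00000062515, chromosome 3, 10204088 to 10208576) encodes a carrier of fatty acids in the adipocyte cytosol and is known also from capillary endothelium and macrophages. At 12 weeks its levels in mice 1 to 5 were 77.8, 42.9, 261, 16.1 and 268 CPM in LO, 53.0, 30.7, 89.9, 76.5 and 252 CPM in SO, and 56.6, 113, 65.9, 118 and 189 CPM in PF. At 32 weeks they were 50.9, 32.1, 99.2, 186 and 54.4 CPM in LO, 26.6, 25.7, 87.9, 23.7 and 125 CPM in SO, and 187, 336, 39.0, 112 and 389 CPM in PF. The same PF mice 1, 2 and 5 were above every SO mouse, and PF mouse 3 was again the lowest of its group.

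Lep (ENSMUSG00000059201, chromosome 6, 29060220 to 29073877) encodes leptin, the hormone that reports the size of fat stores to the brain. In mice 1 to 5 at 12 weeks it was at 5.48, 3.41, 9.57, 0.208 and 7.17 CPM in LO, 2.88, 1.72, 1.81, 1.84 and 18.8 CPM in SO, and 2.90, 4.0027, 1.22, 7.59 and 6.27 CPM in PF. At 32 weeks it was at 1.05, 0.998, 4.44, 3.93 and 0.639 CPM in LO, 1.78, 0.595, 1.29, 0.959 and 23.5 CPM in SO, and 4.72, 6.42, 0.413, 1.28 and 5.57 CPM in PF. SO mouse 5 was the highest of its group at both ages, by a wide gap, although the numbers name different mice at the 2 ages.

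Lipe (ENSMUSG00000003123, chromosome 7, 25379527 to 25398710) encodes hormone-sensitive lipase, which splits diglycerides during lipolysis and is known from other tissues as well. Its levels at 12 weeks were 33.3, 16.9, 40.9, 17.1 and 33.8 CPM in LO mice 1 to 5, 28.4, 17.1, 23.0, 20.2 and 49.1 CPM in SO, and 29.8, 28.4, 17.0, 30.5 and 30.4 CPM in PF. Those at 32 weeks were 34.3, 19.2, 28.6, 29.2 and 18.9 CPM in LO, 26.5, 13.3, 26.1, 13.2 and 29.4 CPM in SO, and 42.6, 45.3, 15.3, 23.4 and 37.7 CPM in PF. Lipe was the flattest member, with 13.2 CPM as its lowest and 49.1 CPM as its highest level. An antisense gene (4732471J01Rik) overlaps it, with at most 30 counts in a mouse against 1730 for Lipe, and the strand setting of the counting is not given in the sources used here.

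The other 5 members are given by their ranges. Car3 (chromosome 3, 14863512 to 14872523), carbonic anhydrase III, an abundant cytosolic protein of adipocytes and slow muscle, ranged from 6.66 to 533 CPM over the 30 mice. Cidec (chromosome 6, 113424634 to 113435760), which lets small lipid droplets merge into a large one, ranged from 0.625 to 76.6 CPM, and Retn (chromosome 8, 3655770 to 3660110), which encodes the secreted factor resistin, from 0.390 to 41.4 CPM. The droplet coat gene Plin1 (chromosome 7, 79720218 to 79732903), whose product holds lipases off the droplet, ranged from 0.270 to 22.8 CPM. Plin4 (chromosome 17, 56100591 to 56109803), a coat protein of small new droplets, ranged from 14.3 to 172 CPM, and shares positions with Hdgfl2 on the opposite strand, so that reads of the pair may not be fully separated.

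**Figure D1:**
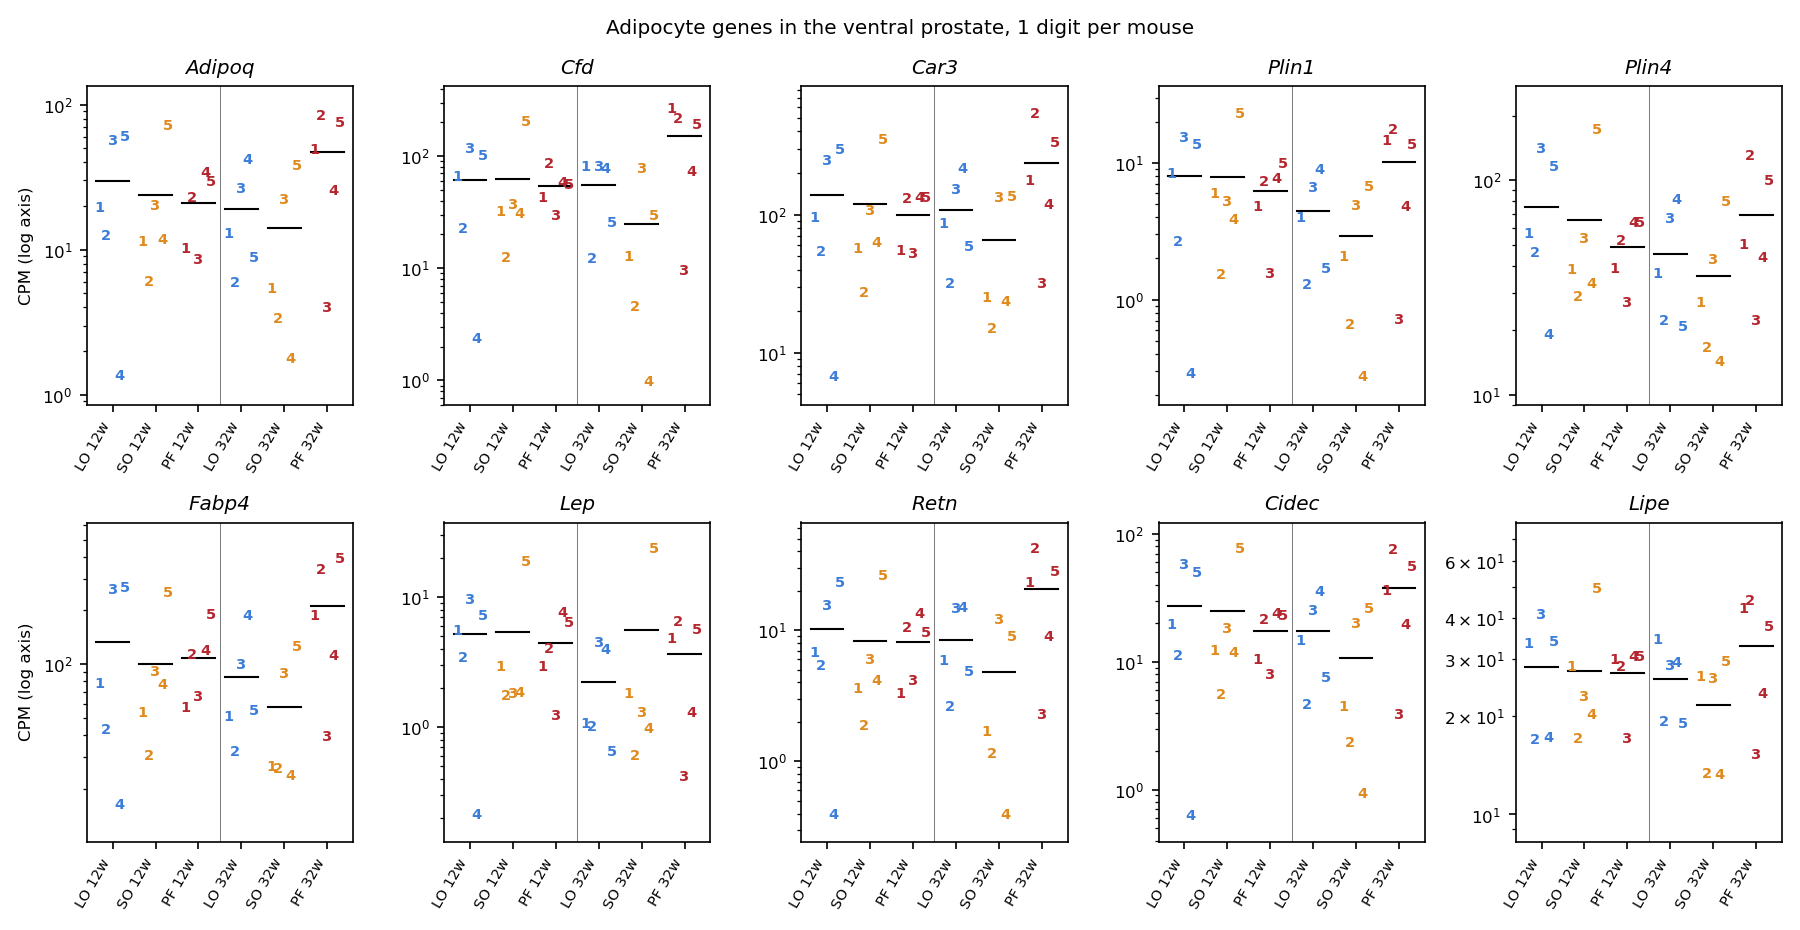
Levels of the 10 genes in CPM (log axis) for each mouse, printed as the mouse's number, by diet and weeks on diet; the bar is the group mean of 5 mice. Adipoq in PF at 32 weeks runs from 3.98 to 83.9 CPM, and the groups of every gene overlap.

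Per kilobase of the principal transcript, the median level over the 30 mice was highest for Fabp4 (92.5 CPM per kilobase), followed by Car3 (59.6), Cfd (52.9), Adipoq (15.3), Cidec (10.8), Lipe (7.85), Plin4 (7.77), Retn (5.56), Plin1 (1.77) and Lep (0.887). Of the 9 steps between neighbours in this order, 1, from Cfd to Adipoq, was larger on the log2 scale (1.79) than the larger pooled SD between mice of the pair (also 1.79 when rounded), and the other 8 were within it. Divided by the union of all exons, which is 4489 bases for Fabp4 against 896 bases for its principal transcript, Fabp4 was at 18.5, below Cfd (52.9) and Car3 (34.9).

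The spread within groups was wide for these genes. The pooled SD of log2 CPM between mice of a group was 1.79 for Cfd, 1.71 for Cidec, 1.66 for Plin1, 1.62 for Lep, 1.61 for Retn, 1.599 for Adipoq, 1.48 for Car3, 1.21 for Fabp4, 0.96 for Plin4 and 0.54 for Lipe, with a median of 1.61. Over all 16605 genes tested the median was 0.24. Wide spread was not particular to the members. Among marker genes of other cell types, the median pooled SD ran from 0.23 (smooth muscle) to 2.22 (skeletal muscle). It was 1.36 for B cells and 1.47 for the epididymis (1 gene tested). Cfd stood at percentile 98.9 of all genes and Lipe at percentile 85.1. Groups accounted for 6.92% (Lep) to 26.05% (Cfd) of the variance of the log2 levels, and the other 74.0% to 93.1% lay between mice of the same group.

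**Figure D2:**
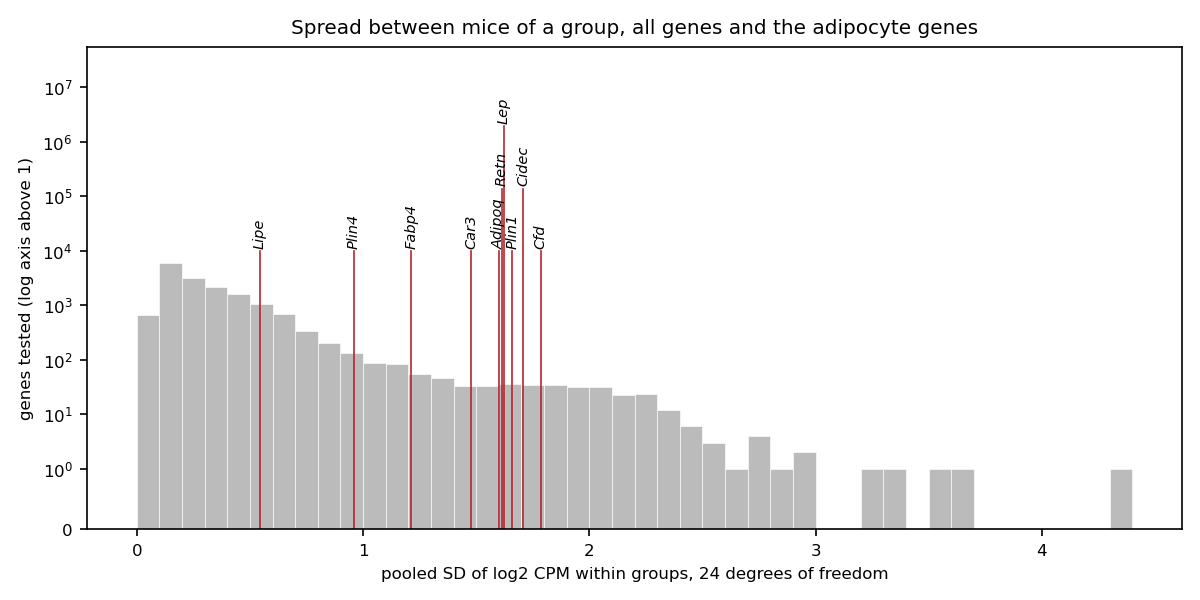
Pooled SD of log2 CPM between mice of a group (x axis) and number of genes tested in each bin of 0.1 (grey bars, log axis above 1); red lines mark the 10 adipocyte genes, with heights set only for legibility. Lipe stands at 0.54 and Cfd at 1.79, against a median of 0.24 over all genes.

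This spread was not alike in all groups. The median SD of the members was 2.20 in LO and 1.38 in SO at 12 weeks, and 0.72 in PF of that age. At 32 weeks it was 1.12 in LO, 1.84 in SO and 1.65 in PF, while the median over all genes stayed between 0.21 and 0.27 in the 6 groups. In 3 groups 1 mouse decided this value by over 1.5 times: it was 1.09 in LO at 12 weeks without mouse 4, 0.70 in SO at 12 weeks without mouse 5 and 0.84 in PF at 32 weeks without mouse 3. Summed over the 10 members, the level was 517 ± 419, 446 ± 449 and 395 ± 151 CPM (SD, n = 5) for LO, SO and PF at 12 weeks, and 371 ± 228, 244 ± 202 and 822 ± 556 CPM (SD, n = 5) at 32 weeks. Single mice reached from 64.1 CPM (LO mouse 4, 12 weeks) to 1483 CPM (PF mouse 2, 32 weeks), and the highest mouse exceeded the lowest of its group from 2.56-fold in PF at 12 weeks to 15.04-fold in LO at 12 weeks.

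The same mice were high or low for nearly all members. At 12 weeks SO mouse 5 was the highest and SO mouse 2 the lowest of their group for 10 of 10 members, LO mouse 4 was the lowest for 9 and PF mouse 3 the lowest for 8. At 32 weeks PF mouse 3 was the lowest for 10 of 10 members and PF mouse 2 the highest for 8. In SO at 32 weeks mouse 4 was the lowest and mouse 5 the highest, each for 8 members, and in LO mouse 4 was the highest and mouse 2 the lowest, each for 7.

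**Figure D3:**
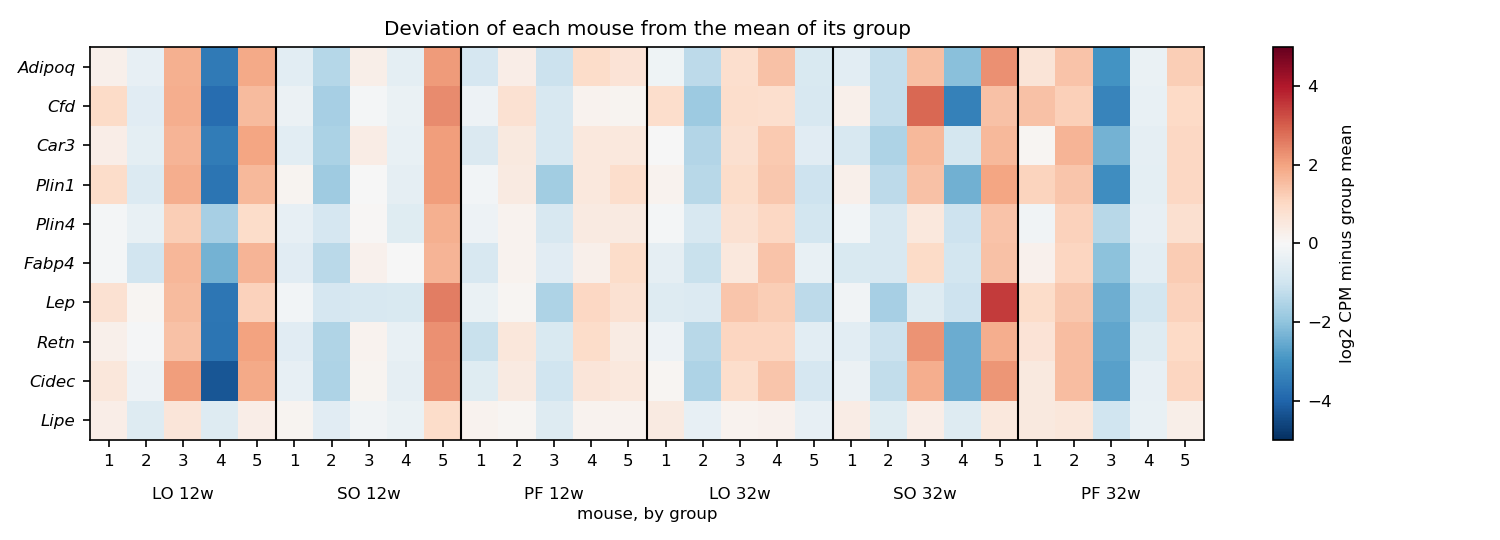
Log2 CPM of each mouse minus the mean of its group (colour; red above, blue below) for the 10 genes (rows) and 30 mice (columns, 5 per group). Columns are mostly of 1 colour from Adipoq to Cidec, as in LO mouse 4 at 12 weeks and PF mouse 3 at 32 weeks, and paler for Lipe.

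With group means removed, the 45 pairs of members correlated over the 30 mice with r from 0.774 (Cfd with Lep) to 0.989 (Adipoq with Cidec), with a median of 0.926, and with rho from 0.785 to 0.988. Points of a pair come from the same library, so these values are a description. Leaving out 1 mouse at a time gave median r from 0.915 to 0.937. The slope of each gene on Adipoq, both as log2 deviations, was near 1 for Cidec (1.06), Cfd (1.04), Plin1 (1.01) and Retn (0.990), and lower for Lep (0.909), Car3 (0.8997), Fabp4 (0.730), Plin4 (0.572) and Lipe (0.284). Thus the droplet-fusing gene Cidec followed adiponectin almost 1 to 1, with a pooled SD of the log2 ratio of 0.28, and the lipase gene followed it least.

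Lep parted from Adipoq in certain groups. The Adipoq to Lep ratio of CPM had a median of 5.89 in LO, 3.92 in SO and 4.70 in PF at 12 weeks, and of 10.5 in LO, 3.02 in SO and 13.1 in PF at 32 weeks. In PF at 32 weeks it ran from 9.64 to 19.8. In SO of that age it was 3.02, 5.60001, 17.0, 1.84 and 1.601 in mice 1 to 5, so that mouse 3 lay within the PF range and the other 4 mice below it.

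**Figure D4:**
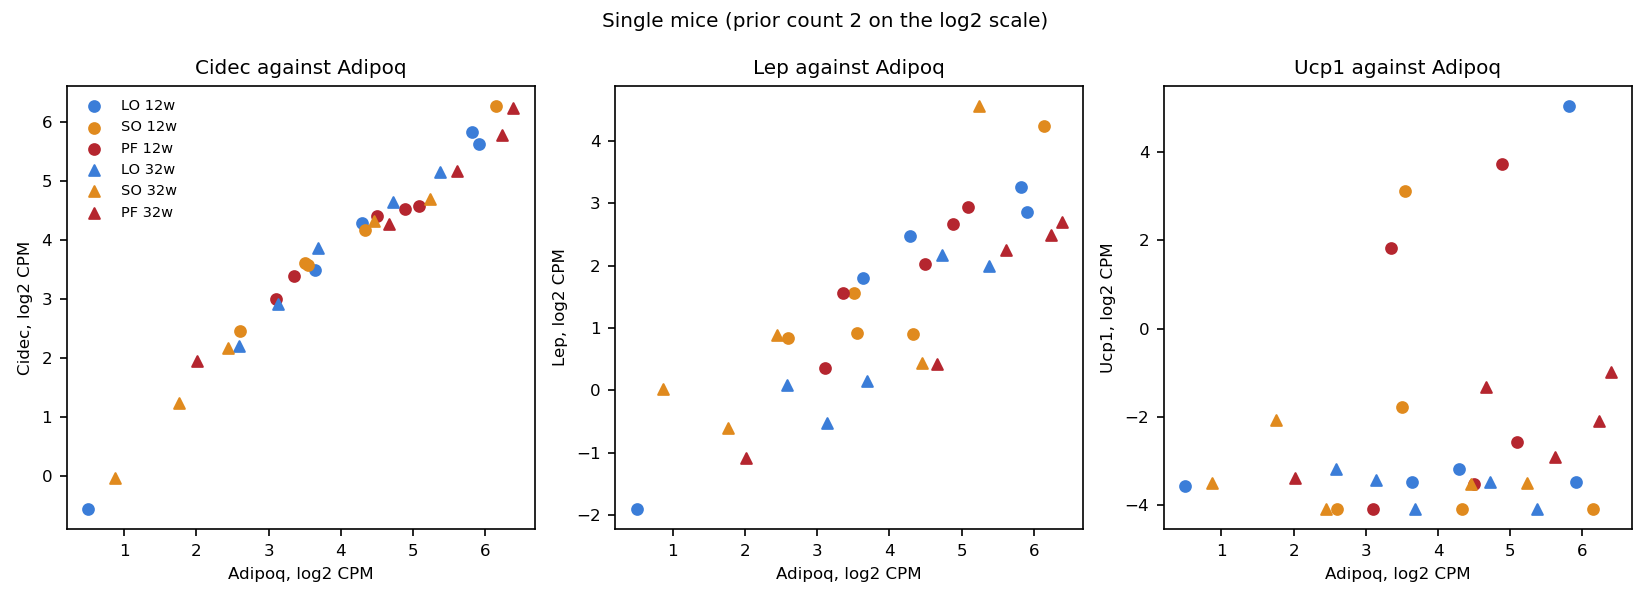
Log2 CPM of Cidec, Lep and Ucp1 (y axes) against log2 CPM of Adipoq (x axes), 1 point per mouse; colour is the diet, circles are 12 and triangles 32 weeks. Cidec lies along 1 line with Adipoq (r = 0.989 with group means removed), Lep scatters more, and Ucp1 is high in 4 mice only.

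The genes most like Adipoq outside the members, by r of group-centred log2 CPM over the 30 mice, were Trarg1 (0.965), Pck1 (0.962), A530016L24Rik (0.960), Tshr (0.958), Dgat2 (0.947), Apol6 (0.946), Lpl (0.946), Abcd2 (0.944), Slc7a10 (0.941) and Cyp2e1 (0.936). Trarg1 encodes a regulator of glucose transporter traffic, Pck1 the enzyme that supplies glycerol for triglyceride in fat, Dgat2 the enzyme of the last step of triglyceride synthesis and Lpl lipoprotein lipase. Of the 16604 other genes, 28 had r above 0.9, 69 above 0.8 and 254 above 0.5, and 186 had r under -0.5. The members took 7 of the top 20 places, with Lep at rank 29 and Lipe at rank 48.

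Other genes of the fat cell were read as 5 lists. All 24 of the other adipocyte genes were tested, with a median r with Adipoq of 0.882; 22 had r above 0.5 and 17 above 0.8. The highest levels in that list were those of Acsl1, an acyl-CoA synthetase (mean 128 CPM, r = 0.591), Lpl (81.3 CPM, r = 0.946) and the monoglyceride lipase gene Mgll (72.8 CPM, r = 0.338). Pparg, the transcription factor that drives adipocyte differentiation, had r = 0.828 and ranged from 1.32 to 8.83 CPM.

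Among the other lipid droplet genes, 8 of 10 were tested and the median r was 0.437. Plin3 (mean 78.5 CPM, r = 0.144), Bscl2 (52.3 CPM, r = 0.355) and Abhd5 (21.5 CPM, r = 0.494), which serve droplets in many cell types, had the highest levels. Of the other secreted factors of fat, 7 of 9 were tested, with a median r of 0.412. The retinol carrier gene Rbp4 had r = 0.914, whereas Nampt (mean 67.0 CPM), an enzyme of NAD synthesis that is also secreted, had r = -0.631. Rarres2, which encodes chemerin, had r = 0.621 and Angptl4, an inhibitor of lipoprotein lipase, r = 0.711.

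The receptors of adipokines and insulin, which cells of many types carry, had a median r of 0.094 over 6 of 6 genes tested. Adipor1 (mean 195 CPM) and Adipor2 (128 CPM), the receptors of adiponectin, and Cap1 (189 CPM), a receptor proposed for resistin, had the highest levels. Adipor1 was the only gene of the 5 lists to pass edgeR's test in any of the 12 comparisons, with a log2 fold change of -0.27 (SE 0.0775, edgeR adjusted p = 0.0360) from 12 to 32 weeks in SO, where 6.46% of all genes were called. Its levels in mice 1 to 5 were 242, 199, 206, 218 and 223 CPM at 12 weeks and 204, 175, 185, 157 and 183 CPM at 32 weeks, and the groups overlapped.

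The thermogenic fat genes had a median r of -0.052 over 7 of 8 genes tested. Ppargc1a (mean 13.2 CPM) and Dio2 (3.76 CPM) had the highest levels, with r of -0.108 and -0.0595. Ucp1, the uncoupling protein of brown and beige adipocytes, was at 32.9 CPM in LO mouse 3, at 13.2 CPM in PF mouse 5, at 8.64 CPM in SO mouse 4 and at 3.47 CPM in PF mouse 1, all at 12 weeks. In every other mouse it was at 0.445 CPM or less. LO mouse 3 was also the highest of the 30 mice for Cidea (9.31 CPM), Cox8b (4.10 CPM) and Elovl3 (1.37 CPM). Cox8b did not always go with Ucp1. It was at 2.63 CPM in PF mouse 5 at 12 weeks, where Ucp1 was also high. It was at 2.82 CPM in LO mouse 1 at 32 weeks, where Ucp1 was at 0 CPM and the muscle genes Ckm and Mb were highest. The other thermogenic genes peaked elsewhere, Cox7a1 in PF mouse 5 (2.63 CPM), Dio2 in PF mouse 3 (6.68 CPM) and Ppargc1a in SO mouse 3 (20.3 CPM), all at 12 weeks, and Prdm16 in LO mouse 1 at 32 weeks (3.06 CPM).

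Markers of other cell types were read as 14 lists, by the r between the log2 of their summed CPM and Adipoq, with group means removed. The highest value was that of the endothelium (0.306), followed by urothelium (0.202), mesothelium (0.201), luminal epithelium (0.0952), epididymis (0.0878), smooth muscle (0.0782), macrophages (0.0644), seminal vesicle (0.0604), and fibroblasts and adipocyte progenitors (0.00276). Negative values were found for basal epithelium (-0.0957), nerve sheath (-0.198), red blood cells (-0.237), skeletal muscle (-0.340) and B cells (-0.386). By comparison, the summed other adipocyte genes had 0.922. The mean deviation of the members had r of 0.190 with the total of counts, -0.163 with the share of read pairs outside genes and -0.0987 with the TMM factor over the 30 mice.

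The design asked whether diets differ in the VP at each age. At 12 weeks, 0 of 10 members passed edgeR's quasi-likelihood test at an adjusted p under 0.05 in PF against SO, PF against LO or LO against SO, beside 0% of 15873 genes in each. None had an unadjusted p under 0.05 by edgeR or DESeq2. By edgeR, 7.99%, 9.24% and 4.28% of all genes had such a p in the 3 comparisons. By DESeq2 it was 1447 of 17483, 1510 of 14549 and 807 of 25367 genes. DESeq2 also called 0 members in the 3 comparisons, beside 1.26%, 0.522% and 0% of the genes it tested. The median log2 fold change of the members was -0.23 in PF against SO, -0.32 in PF against LO and 0.18 in LO against SO, and the median over all genes was between -0.01 and 0.00.

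Single members at 12 weeks lay close to 0 relative to their errors. In PF against SO, the extremes were Cidec (log2 fold change -0.51, SE 0.807) and Fabp4 (0.12, SE 0.670). PF against LO ran from Cidec (-0.65, SE 0.808) to Lipe (-0.05, SE 0.292), and LO against SO from Lep (-0.07, SE 0.793) to Fabp4 (0.41, SE 0.671). The 3 comparisons share groups, and SO mouse 5, the highest of its group for 10 of 10 members, entered PF against SO and LO against SO. Without it the median of the members was 0.72 in PF against SO and 1.13 in LO against SO, again with 0 members called. The median in LO against SO was below 0 without LO mouse 3 (-0.13), LO mouse 5 (-0.20) or SO mouse 2 (-0.0604). Pbsn and Msmb were at 346 and 647 CPM in SO mouse 5, and at 123 and 540 CPM in LO mouse 2. The part of that in the levels of the members in these mice was not tested.

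At 32 weeks the PF group had the highest mean of 9 members, and Lep was the exception. For the members not yet given by mouse, Car3 was at 176, 533, 31.5, 118 and 332 CPM in PF mice 1 to 5 and at 24.8, 14.8, 132, 23.2 and 135 CPM in SO. Retn was at 22.7, 41.4, 2.25, 8.84 and 28.0 CPM in PF and at 1.69, 1.13, 11.9, 0.390 and 8.88 CPM in SO. Cidec was at 35.9, 74.8, 3.83, 19.2 and 54.5 CPM in PF and at 4.45, 2.32, 19.8, 0.929 and 25.6 CPM in SO. In all 3 genes PF mice 1, 2 and 5 were above every SO mouse and PF mouse 3 was within the SO range.

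Plin1 was at 14.4, 17.3, 0.714, 4.72 and 13.6 CPM in PF and at 2.04, 0.655, 4.79, 0.270 and 6.71 CPM in SO. Plin4 was at 50.2, 129, 22.2, 43.4 and 99.7 CPM in PF and at 26.8, 16.5, 42.4, 14.3 and 79.0 CPM in SO. Counted over the 10 members, 3 of 5 PF mice lay above all SO mice for 8 members, 2 did so for Plin4 and 0 for Lep. At least 3 PF mice lay above every SO mouse in 10.5% of all genes tested. Of the 60 combinations of a member, a pair of diets and an age, 0 gave groups without overlap. Over all genes tested, groups did not overlap in 1.57% (PF and SO), 1.59% (PF and LO) and 0.731% (LO and SO) at 12 weeks, and in 2.18%, 1.13% and 0.641% at 32 weeks.

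In PF against SO at 32 weeks, 0 of 10 members passed edgeR's test, beside 0% of 16218 genes, and DESeq2 called 0 members, beside 0.716% of genes. With the mouse number added as a block, which the labels do not give as a pairing, DESeq2 called 1 member, Cfd, beside 1.5% of genes. The median log2 fold change of the members was 1.84, against 0.00 over all genes, and 9 of 10 were above 0. At an unadjusted edgeR p under 0.05 there were 6 of 10 members, beside 10.8% of all genes, and DESeq2 had 8, beside 12.2%. Since the members are correlated from mouse to mouse, the 6 are not separate pieces of evidence.

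By role, the secreted factors gave a log2 fold change of 2.63 (SE 0.973, edgeR adjusted p = 0.395) for Cfd, 2.13 (SE 0.860, edgeR adjusted p = 0.419) for Retn, 1.78 (SE 0.851, edgeR adjusted p = 0.466) for Adipoq and -0.58 (SE 0.972, edgeR adjusted p = 0.861) for Lep. The droplet genes gave 1.85 (SE 0.865) for Cidec, 1.84 (SE 0.843) for Plin1 and 0.96 (SE 0.551) for Plin4, with edgeR adjusted p from 0.455 to 0.538. Fabp4, the fatty acid carrier, had the lowest p of all members, at 1.90 (SE 0.658, edgeR adjusted p = 0.381). Car3 was at 1.87 (SE 0.774, edgeR adjusted p = 0.419) and the lipase gene Lipe at 0.62 (SE 0.314, edgeR adjusted p = 0.485).

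**Figure D5:**
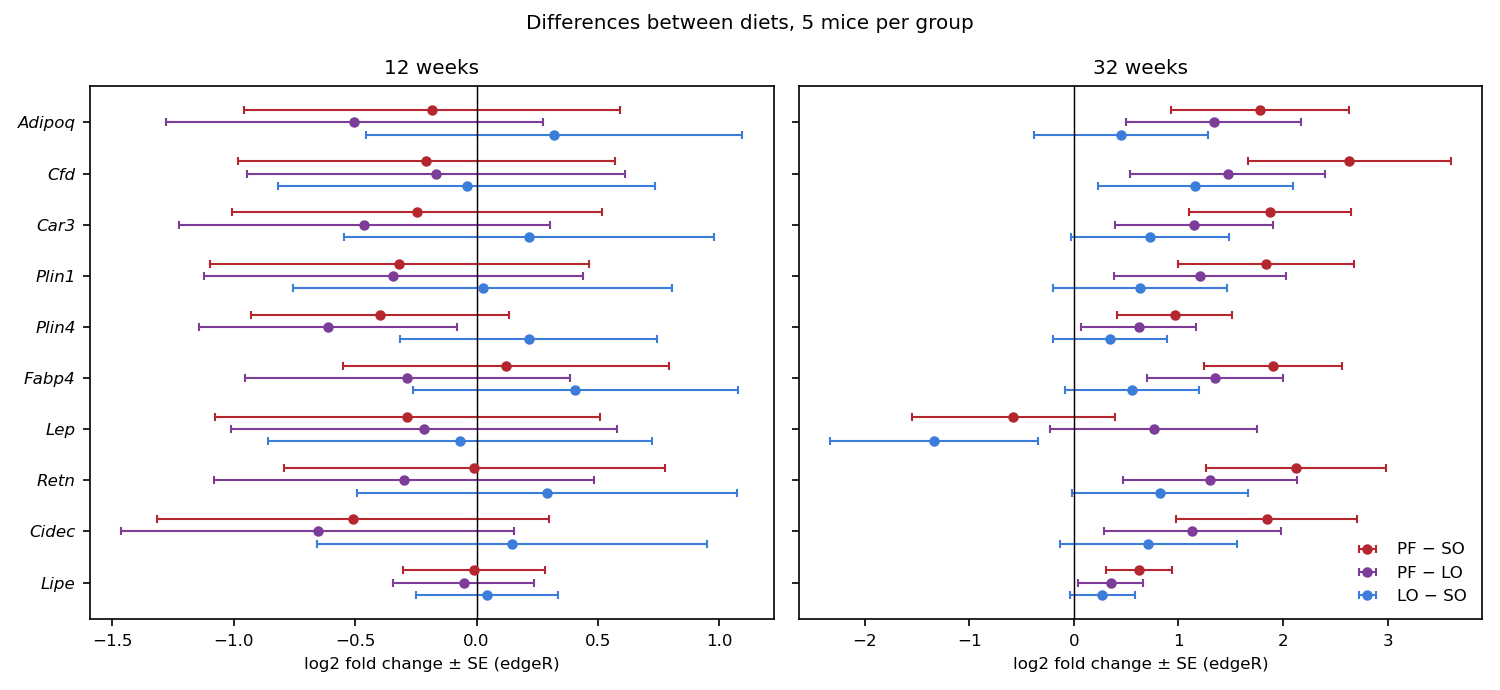
Log2 fold change (x axis) of each gene with its SE from edgeR for PF minus SO, PF minus LO and LO minus SO at 12 weeks (left) and 32 weeks (right), 5 mice per group; the 2 panels have different scales. At 32 weeks Cfd in PF minus SO stands farthest from 0, at 2.63, and Lep at -0.58; 0 of the values passed an adjusted p under 0.05.

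Lep in this comparison rested on SO mouse 5, at 23.5 CPM against 0.595 to 1.78 CPM in the other 4 SO mice. Without that mouse its log2 fold change was 1.69 in PF against SO and 0.93 in LO against SO. The 24 other adipocyte genes had 24 of 24 values above 0 in PF against SO, with a median of 1.12 and 0 called. The 8 other lipid droplet genes had 8 of 8, with a median of 0.21 and 0 called. Over all genes tested, 49.3% were above 0. The other adipocyte genes followed Adipoq in the same mice (median r 0.882), so they are not evidence separate from the members. The sum of the other adipocyte genes ran from 400.2 to 1119 CPM in PF and from 336 to 695 CPM in SO. Lists of other cells overlapped between PF and SO, with 52.8 to 97.9 against 49.4 to 73.6 CPM for the endothelium, 747 to 1224 against 694 to 1130.1 CPM for fibroblasts and adipocyte progenitors, 94.7 to 185 against 91.5 to 190.1 CPM for macrophages and 41.5 to 474 against 46.2 to 274 CPM for skeletal muscle.

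Among the lists of other cells, that of red blood cells had the median farthest from 0 in PF against SO at 32 weeks, with 3 of 3 genes above 0, a median of 2.22 and 0 called. Their sum ran from 34.2 to 385 CPM in PF and from 23.6 to 63.2 CPM in SO. PF mouse 4 was the highest of all mice for each of them, with Hbb-bs at 293 CPM against a median of 22.8 CPM over all mice. The luminal epithelium had 7 of 8 genes above 0, a median of 0.20 and sums of 129152 to 301558 against 147377 to 173529 CPM. B cell genes had 0 of 3 above 0, a median of -0.92 and sums of 6.02 to 16.9 against 2.79 to 63.8 CPM. The seminal vesicle list had 0 genes tested. The medians of the other 10 lists lay between -0.21 (basal epithelium) and 0.24 (epididymis, 1 gene tested), with 0 genes called. The part of these cells in the levels of the members was not tested.

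PF against LO at 32 weeks gave a median of 1.18 for the members, 10 of 10 above 0, from Lipe (0.35, SE 0.313) to Cfd (1.47, SE 0.932). Adipoq was at 1.34 (SE 0.839) and Lep at 0.76 (SE 0.988). edgeR called 0 of 10 members, beside 0% of genes, with 0 at an unadjusted p under 0.05, beside 8.60% of genes. DESeq2 called 0, beside 0.571%, with 1 at an unadjusted p under 0.05, beside 1471 of 14722 genes. LO against SO gave a median of 0.59, from Lep (-1.34, SE 0.994) to Cfd (1.16, SE 0.932). There edgeR called 0 members, beside 0%, and DESeq2 0, beside 0.0234%, with 0 at an unadjusted p under 0.05 in both. Such a p was found for 3.48% of genes by edgeR and 714 of 25678 by DESeq2. The comparisons with PF share the PF mice.

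The second question was whether the genes changed between 12 and 32 weeks on a diet. The median of the members was -0.65 in LO, -0.83 in SO and 1.05 in PF, and the medians over all genes were between -0.01 and 0.00. In LO, 10 of 10 members were below 0, from Lep (-1.22, SE 0.960) to Lipe (-0.12, SE 0.318). SO ran from Plin1 (-1.43, SE 0.868) to Lep (0.06, SE 0.933), and PF from Lep (-0.25, SE 0.939) to Cfd (1.48, SE 0.910).

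No member passed either test over time. edgeR called 0 members beside 2.7% of 16605 genes in LO, 6.46% in SO and 0.0301% in PF. DESeq2 called 0 members beside 6.7%, 7.84% and 0.291%. Both had 0 members at an unadjusted p under 0.05 in each diet. Such a p was found for 20.5%, 19.7% and 10.2% of all genes by edgeR. By DESeq2 it was found for 3449 of 16347, 3603 of 18928 and 1859 of 17896 genes. In SO the median without mouse 5 of 32 weeks was -1.39, and without mouse 5 of 12 weeks -0.07. Lep in SO went from 0.06 to -2.23 and 1.45 in these fits.

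Markers of other cells moved with time as well. In LO, the macrophage genes had a median of 0.94 (6 of 6 above 0, 0 called), B cells 1.43 (3 of 3, 0 called) and skeletal muscle 2.998 (6 of 6, 0 called), and edgeR called the basal genes Trp63 and Krt5 higher and the secretory gene Sbp lower. In SO, macrophages had a median of 1.05, with 3 of 6 genes called higher (Adgre1, Fcgr1 and Cd68), and the B cell genes Cd79a and Ms4a1 were called higher. Skeletal muscle in SO was at 2.86 (6 of 6 above 0, 0 called), Trp63 and Ly6a were called higher, and Sbp and the urothelial gene Upk1a lower. In PF, red blood cells had a median of 2.04 (3 of 3 above 0) and skeletal muscle one of 1.896 (5 of 6), with 0 genes of the 14 lists called. PF mouse 4 of 32 weeks was the highest of all mice for each of the red blood cell genes. The part of these cells in the change of the members was not tested.

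The change of a diet difference with time was tested in 1 fit of all 30 mice. For PF against SO the median of the members was 2.03, with Cfd at 2.82 (SE 1.29, edgeR adjusted p = 0.479) and Lep at -0.31 (SE 1.32). Cfd was the 1 member with an unadjusted p under 0.05 by edgeR, beside 9.49% of all genes. DESeq2 also had 1, beside 1786 of the 19444 genes it tested. Of the members 0 were called, beside 0% of genes by edgeR and 0.226% by DESeq2. PF against LO gave a median of 1.602, from Lipe (0.40, SE 0.449) to Adipoq (1.83, SE 1.21), and LO against SO a median of 0.36 (-0.499 without SO mouse 5 of 12 weeks), from Lep (-1.28, SE 1.33) to Cfd (1.19, SE 1.27). In these, edgeR called 0 members beside 0% and DESeq2 0 members beside 0.098% and 0%, with 0 at an unadjusted p under 0.05. Such a p was found for 7.79% and 3.33% of genes by edgeR. By DESeq2 it was found for 1281 of 14284 and 652 of 26704 genes. Thus the PF to SO difference at 32 weeks was not shown to differ from that at 12 weeks.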

How the data were processed

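Total RNA of the VP was made into TruSeq Stranded mRNA libraries, from 200 ng of RNA with an integrity number above 8 per the labels; the labels and the study's methods name different extraction kits. The deposited files hold raw read-pair counts per Ensembl gene, 1 file per library, made by the authors with TopHat2 and HTSeq on GRCm38.p6, the tools and build that the submitters' processing notes name; strand setting and annotation release are not given in the sources used here. Rows of unassigned read pairs (6.67% to 12.2% outside genes) were left out of library sizes. Symbols came from a GENCODE annotation of GRCm38 and promoters from RefSeq.

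Counts were filtered with filterByExpr, scaled by TMM and tested with edgeR 4.0.16 (quasi-likelihood F test, R 4.3.3) with Benjamini-Hochberg adjustment over all genes tested, at an adjusted p of 0.05. The 15 mice of 1 age entered each diet comparison, and all 30 mice the others. Log2 CPM used a prior count of 2; SE is the log2 fold change divided by the root of F. Fits were also run on simulated data. The outcome is not given here, and no result rests on it. Alternatives were DESeq2 1.42.0, other scaling, no filter, a robust fit and mouse number as a block. Mice 1 to 4 at 32 weeks and each mouse left out were further alternatives. For the 32-week transcriptome the study's legend gives n = 5, while its plots show 4 mice per diet at that age. All 5 deposited were used here. The 60 pairs of mice within groups differed by more than sampling noise (lowest chi-square per degree of freedom 24.5). Named were all members, the 10 genes most like Adipoq and, per list, genes called and up to 3 with the highest mean; Pparg, Rbp4, Cidea, Cox8b, Elovl3, Pbsn and Msmb were named after their values were seen. The members and lists were chosen with earlier results of these data known.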

Additional observations from a re-analysis of the deposited data

Results flagged for a closer look

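In 11 of the 60 combinations of a member and a group, the highest or lowest mouse stood apart from the other 4 by Dixon's test (critical value 0.71). The test was run on CPM and not on log2 CPM. Its rate of about 1 in 20 groups flagged by chance holds for normally distributed values, which CPM need not be. As log2 deviations from the group mean, Adipoq was at 2.12 in SO mouse 5 at 12 weeks, 0.31 in the next mouse and -1.43 in the lowest. Lep was at 2.54, -0.13 and -0.86. The members also share the same mice, so these are far from 11 separate events. SO mouse 5 at 12 weeks was high for 9 members, at 70.8 CPM for Adipoq (next highest mouse 20.1), 203 CPM for Cfd (36.6), 346 CPM for Car3 (106), 22.8 CPM for Plin1 (5.87), 172 CPM for Plin4 (53.2), 252 CPM for Fabp4 (89.9), 18.8 CPM for Lep (2.88), 25.9 CPM for Retn (5.96) and 76.6 CPM for Cidec (17.9). Lep was high in SO mouse 5 at 32 weeks, at 23.5 CPM against 1.78 CPM in the next mouse. Lipe was low in PF mouse 3 at 12 weeks, at 17.0 CPM against 28.4 CPM in the next mouse.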

How the results depend on the processing

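The count of members called was the same in 257 of 258 alternatives, of which 246 were refits and 12 a threshold of 0.1 on the adjusted p. The exception was chosen after seeing the data: DESeq2 with the mouse number as a block called 1 member in PF against SO at 32 weeks, Cfd (log2 fold change 3.42, SE 0.994, adjusted p = 0.0432), beside 1.5% of genes; over its alternatives the adjusted p ran from 0.0432 to 0.793. The labels state no batch or pairing by number, so the numbers were not taken as pairs. Same-numbered libraries of different groups correlated by 0.0559 on average at 12 weeks (above 0.1 in 5 of 15 pairs) and 0.132 at 32 weeks (10 of 15). Differently numbered libraries averaged -0.0137 and -0.0291. Over all 6 groups the averages were 0.122 and -0.0290, with 39 of 75 same-numbered pairs above 0.1. What the numbers share was not tested. With that block in edgeR the direction turned for Cidec in PF against SO at 12 weeks (0.17), Lipe in PF against LO at 12 weeks (0.0175), and Lep in LO against SO at 12 weeks (0.47), in PF against SO (0.47) and LO against SO (0.10) at 32 weeks and in SO over time (-0.27). With the block in DESeq2 these were 0.21, 0.0182, 0.52, 0.55, 0.22 and -0.31, and the change of the PF to SO difference for Lep was 0.0190. The block also turned the median of the members at 12 weeks, to 0.39 (edgeR) and 0.41 (DESeq2) in PF against SO and to 0.0639 and 0.0711 in PF against LO. Of 246 refitted medians 9 turned direction, these 4 and 5 that left out 1 mouse: 0.72 in PF against SO at 12 weeks, -0.13, -0.20 and -0.0604 in LO against SO at 12 weeks and -0.499 in its change with time. With mice 1 to 4 at 32 weeks, Lep was at 1.49 in PF against SO, 1.16 in LO against SO and -2.23 in SO over time, and the changes of both differences were 1.802 and 1.27. Leaving out 1 mouse at a time turned the direction of some low values. At 12 weeks the ranges were -0.77 to 0.55 (Cidec) and -0.18 to 0.80 (Fabp4) in PF against SO, -0.19 to 0.12 (Lipe) in PF against LO, and -0.41 to 1.31 (Lep) and -0.0164 to 1.08 (Fabp4) in LO against SO. For Lep they were -0.87 to 1.69 in PF against SO and -1.76 to 0.93 in LO against SO at 32 weeks, -2.23 to 1.45 in SO and -0.54 to 0.0545 in PF over time, and -1.68 to 1.99 and -2.64 to 1.04 for the changes of the PF to SO and LO to SO differences; Lipe over time in LO gave -0.24 to 0.0623. Of 682 refitted fold changes of named members, 42 turned direction, on 12 of 34 values, and 1 passed the threshold. For PF against SO at 32 weeks the median of the members ran from 1.47 without PF mouse 2 to 2.40 without SO mouse 5. The median pooled SD of the members ran from 1.41 to 1.64 over leaving out each mouse (added after seeing the data), a prior count of 0.5 and other scaling. The cause of these shifts was not tested. With 5 mice a group, the median SE of the members in PF against SO at 32 weeks was 0.85, against 0.16 over all genes, which limits the sizes that could pass the test.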
